A study of Mus musculus with 15 samples.

Results

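The genes described here encode the NF-kB transcription factor subunits and the IkB proteins that bind them. They are listed by name, and no measured value enters the list, although it was chosen with earlier results of these data known. It holds 5 subunit genes (Nfkb1, Nfkb2, Rel, Rela and Relb) and 5 IkB genes (Nfkbia, Nfkbib, Nfkbie, Nfkbiz and Bcl3), 10 of the 50554 genes counted. All 10 were detected in every library, and all 10 passed the filter on low counts, which kept 20865 genes. They were followed in 15 RNA sequencing libraries of BMDCs, dendritic cells that were grown from mouse marrow over 9 days with the growth factor GM-CSF. The mice carried CreERT2, a Cre recombinase switched on by tamoxifen, and all received tamoxifen more than 12 weeks before marrow was taken, so every group had a floxed Mysm1 allele to delete. Controls (Δ/+) kept a wild-type Mysm1 allele. The other genotype (Δ/DN) kept an allele that encodes a catalytically inactive form of MYSM1, a chromatin-bound deubiquitinase. The labels do not state the promoter that drives CreERT2, the age of the mice or whether each culture came from its own mouse, so p-values measure the spread between cultures at most. Cells were then held for 18 h unstimulated (US) or with 10 ng/mL lipopolysaccharide (LPS), a bacterial cell wall component. There were 4 US and 3 LPS libraries of Δ/+ cells, and 4 US and 4 LPS libraries of Δ/DN cells. The study asked how loss of MYSM1 activity in blood-forming cells bears on the response of dendritic cells to microbial stimuli.

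NF-kB proteins act as dimers. In resting cells most dimers are held in the cytoplasm by IkB proteins, and a toll-like receptor that has bound LPS sets off a kinase complex that marks IkB for destruction and frees the dimer to enter the nucleus. Several of the genes it then switches on encode NF-kB and IkB proteins themselves, which is the best known feedback loop of this pathway. Rela, Rel and Relb encode subunits with a transactivation domain, whereas Nfkb1 and Nfkb2 encode long precursors that are processed into DNA-binding partners without one. Nfkbia, Nfkbib and Nfkbie encode the classical cytoplasmic inhibitors. Nfkbiz and Bcl3 encode nuclear IkB proteins that work on chromatin-bound NF-kB.

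Because this family is known to feed back on itself, the bases before the start sites of its genes are shown with the letters of the NF-kB motif. RefSeq windows of GRCm38.p6 were matched for 7 of the 10 genes, with 9 windows in all. Nfkb1, Relb and Nfkbiz were not matched. The 250 bases before each start were searched on both strands for a loose form of the motif (GGG, any 5 bases, then CC) and for a stricter form contained in it (GGG, any 2 bases, then TTTCC). The 3 genes with a stricter match are shown, each by a stretch cut from its first window around the matches. Strand and coordinates are those of the stretch, printed 5′ to 3′ with every loose match in capitals. Matches that overlap run together.
Nfkbia, chr12:55492648-55492879, minus strand: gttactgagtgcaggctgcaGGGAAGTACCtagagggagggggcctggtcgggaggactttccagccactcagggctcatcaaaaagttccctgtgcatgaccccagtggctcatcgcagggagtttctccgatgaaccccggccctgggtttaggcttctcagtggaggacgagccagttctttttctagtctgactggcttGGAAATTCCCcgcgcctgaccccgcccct
Rel, chr11:23770995-23771131, minus strand: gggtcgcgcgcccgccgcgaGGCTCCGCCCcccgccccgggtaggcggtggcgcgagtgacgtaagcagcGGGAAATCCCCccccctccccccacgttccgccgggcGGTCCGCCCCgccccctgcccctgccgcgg
Nfkb2, chr19:46304536-46304736, plus strand: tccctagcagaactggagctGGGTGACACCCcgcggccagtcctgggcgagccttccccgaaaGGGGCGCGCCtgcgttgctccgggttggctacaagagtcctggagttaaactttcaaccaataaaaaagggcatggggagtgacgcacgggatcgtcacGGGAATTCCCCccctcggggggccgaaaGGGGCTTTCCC
The stricter match lay 29 bases before the start of Nfkbia (GGAAATTCCC, read on the opposite strand), 91 bases before the start of Rel (GGAAATCCCC, opposite strand) and 11 bases before the first start of Nfkb2 (GGGGCTTTCC). It was held by 4 of the 9 windows of the members, one of them before another start of Nfkb2, and by 1.41% of 32851 windows of the same length. The loose form was held by 8 of the 9 windows, all but that of Nfkbib, and by 45.8% of the 32851. A match describes letters in these windows only. The counts themselves were made on GRCm39.

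Depth and purity can be stated briefly. The libraries held 37256651 to 104041282 counted reads. The summed level of 8 dendritic cell markers was 5262 to 13305 CPM, read counts scaled to library size in every library, with Itgax and H2-Ab1 high, while Flt3 and Cd209a stayed below 3 CPM. Macrophage markers, 9 genes, summed to 1181 to 1753 CPM in every library. By edgeR's test (adjusted p under 0.05), 3 of them were higher and 1 lower in Δ/DN US libraries, 1 higher and 1 lower in Δ/DN LPS libraries. Of all genes tested, 5.01% were higher and 5.45% lower without LPS, 5.37% and 3.23% with LPS. Of the dendritic cell markers, 1 was higher in Δ/DN US and 1 in Δ/DN LPS libraries. Among mast cell and basophil markers 1 was higher with LPS, and among B cell markers 1 was lower without LPS. Mast cell and basophil markers summed to 0.845 to 2.57 CPM in Δ/+ and to 1.17 to 12.9 CPM in Δ/DN libraries, and those of B cells and of T and NK cells to at most 3.44 and 2.25 CPM. The part of these cells in the genotype differences was not tested. The neutrophil markers, 10 genes, summed to 51.7 to 172 CPM in 13 libraries and to 839 and 993 CPM in the US and LPS libraries of Δ/DN culture 4. Of them 1 was called higher in Δ/DN US and 1 in Δ/DN LPS libraries. In US libraries Csf3r was at 7.91 to 20.7 CPM in Δ/DN against 3.95 to 5.74 CPM in Δ/+. Such a separation upward was found in 6.28% of all genes tested. S100a8 overlapped, at 35.9 to 291 against 27.3 to 46 CPM. The 7SL RNA took 10.4% of the reads of the US library of Δ/DN culture 3 against 1.61% to 5.66% in the others. In that library the mean centred log2 level of 40 NF-kB target genes was -1.39, against -2.40 to -2.16 in the other Δ/DN US libraries. Ddx3y, a gene of the Y chromosome, was at 0 to 3.69 CPM in the 4 libraries of Δ/DN cultures 3 and 4 and at 47.2 to 105 CPM in the other 11, all Δ/+ libraries among them. Genotype differences are therefore also given without these cultures where that changes a call. Fewer cells of a type and less RNA per cell cannot be told apart in such bulk samples. The letters that name the mouse groups stand for one genotype in the series description and for the other in the sample names. Directions between genotypes follow each sample's own genotype field, and they would reverse if the description holds instead.

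All 10 genes were higher after 18 h of LPS, in both genotypes. Each passed edgeR's quasi-likelihood test after Benjamini-Hochberg adjustment in Δ/+ cells, where 22.4% of all genes tested were called higher with LPS, and in Δ/DN cells, where 23.1% were. The median log2 change of the 10 genes was 2.11 in Δ/+ and 2.13 in Δ/DN cells, against -0.08 and -0.09 over all genes tested. For every one of the 10, the lowest LPS library lay above the highest US library of the same genotype. Such a separation upward was found in 24.3% of all genes tested in Δ/+ and in 20.1% in Δ/DN cells. The sizes differed between members, from 1.67 to 2.39-fold within a culture for Relb to 20.5 to 43.0-fold for Nfkbiz.

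**Figure D1:**
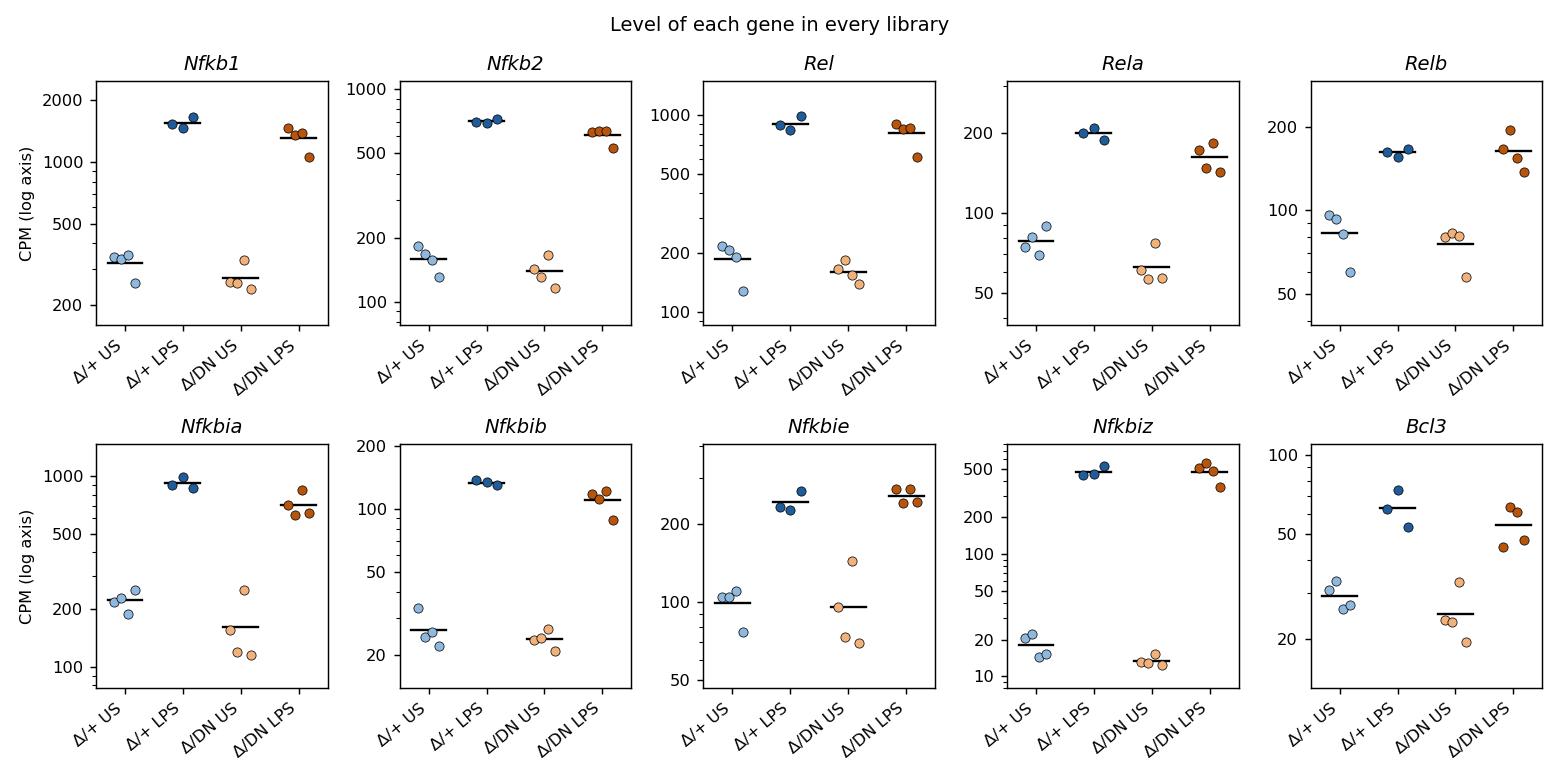
Level of each of the 10 genes (CPM, log axis) in every library, by group; points are libraries and bars are group means. The LPS libraries lie above the US libraries of the same genotype for all 10 genes, with the widest gap in Nfkbiz, from 12.4 to 22 CPM in US libraries to 353 to 552 CPM in LPS libraries.

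Among the subunits, Nfkb1, the precursor of the most common partner of RelA, was measured at 342, 334, 351 and 256 CPM in the Δ/+ US libraries and at 1538, 1463 and 1657 CPM in the Δ/+ LPS libraries. In Δ/DN cells it was at 260, 256, 333 and 238 CPM without and at 1461, 1351, 1388 and 1061 CPM with LPS. All LPS libraries were therefore far above all US libraries, with the Δ/DN culture 4 library the lowest of the LPS libraries. Its log2 change with LPS was 2.25 ± 0.15 (SE; adjusted p = 3.24e-08) in Δ/+ and 2.27 ± 0.14 (adjusted p = 2.13e-08) in Δ/DN cells by edgeR's quasi-likelihood test.

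Rel, which encodes c-Rel, a subunit prominent in myeloid and lymphoid cells, moved by a similar amount. It lay at 128 to 216 CPM in the Δ/+ US libraries and at 834 to 989 CPM in the Δ/+ LPS libraries, a log2 change of 2.22 ± 0.13 (adjusted p = 1.74e-08). In Δ/DN cells it went from 138 to 183 CPM up to 610 to 901 CPM, with a log2 change of 2.33 ± 0.13 (adjusted p = 9.45e-09). Within a culture that was sequenced with and without LPS, the fold ranged from 4.07 to 5.17 in 3 Δ/+ cultures and from 4.42 to 5.60 in 4 Δ/DN cultures. Nfkb2, the precursor whose processing defines the non-canonical arm of the pathway, went from 130 to 183 CPM up to 694 to 725 CPM in Δ/+ cells (log2 change 2.12 ± 0.13, adjusted p = 2.08e-08). Its Δ/DN values were 116 to 166 CPM without and 526 to 635 CPM with LPS (2.12 ± 0.12, adjusted p = 1.69e-08). Its lowest Δ/DN LPS library was again that of culture 4.

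Rela and Relb moved least among the subunits. Rela, which encodes RelA, the main transactivating subunit of the canonical arm, was measured at 74.5, 81.0, 69.4 and 89.2 CPM in Δ/+ US libraries and at 200, 209 and 188 CPM in Δ/+ LPS libraries. Its Δ/DN values were 60.8, 56.4, 76.8 and 56.7 CPM without and 173, 147, 183 and 143 CPM with LPS. The log2 change was 1.38 ± 0.12 (adjusted p = 3.73e-07) in Δ/+ and 1.37 ± 0.11 (adjusted p = 2.2e-07) in Δ/DN cells. The rise of Rela was thus smaller than that of its partner gene Nfkb1, as the 95% intervals show: 1.93 to 2.57 for Nfkb1 and 1.12 to 1.64 for Rela in Δ/+ cells. Relb, the partner of processed Nfkb2 in the non-canonical arm, was at 96.3, 93.2, 82.4 and 59.8 CPM in Δ/+ US libraries and at 163, 156 and 167 CPM in Δ/+ LPS libraries. In Δ/DN cells it was at 80.3, 83.0, 80.7 and 57.8 CPM without and 166, 195, 155 and 138 CPM with LPS. Relb had the smallest estimated rise of the 10 genes, 0.89 ± 0.12 (adjusted p = 1.95e-05) in Δ/+ and 1.11 ± 0.11 (adjusted p = 1.39e-06) in Δ/DN cells on the log2 scale. Its 95% interval overlapped that of Bcl3 in each genotype, for instance 0.88 to 1.35 against 0.77 to 1.48 in Δ/DN cells.

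Of the classical inhibitors, Nfkbia encodes IkB alpha, which is rebuilt quickly after activation and can take RelA out of the nucleus again. It was measured at 218, 230, 190 and 254 CPM in Δ/+ US libraries and at 893, 985 and 866 CPM in Δ/+ LPS libraries (log2 change 2.11 ± 0.21, adjusted p = 1.17e-06). In Δ/DN cells it was at 156, 120, 253 and 116 CPM without and 708, 622, 847 and 638 CPM with LPS (2.14 ± 0.20, adjusted p = 6.46e-07). The US library of Δ/DN culture 3 was the one far above the other Δ/DN US libraries, so that this culture had the lowest fold, 3.35, against up to 5.48 in the other Δ/DN cultures. In the Δ/+ cultures the fold lay between 4.10 and 4.57.

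Nfkbib, which encodes IkB beta, an inhibitor that is slower to be degraded, was low without LPS, at 22 to 33.3 CPM in Δ/+ and 20.7 to 26.4 CPM in Δ/DN cells. With LPS it reached 130 to 137 and 88.5 to 122 CPM. The log2 changes of Nfkbib were 2.31 ± 0.13 (adjusted p = 1.38e-08) and 2.21 ± 0.13 (adjusted p = 1.35e-08), close to those of the subunit precursors. Nfkbie, which encodes IkB epsilon, rose less, by 1.3 ± 0.21 (adjusted p = 0.000144) and 1.42 ± 0.20 (adjusted p = 3.73e-05). Its Δ/DN US libraries spread widely, at 95.9, 73.6, 144 and 69.9 CPM, with culture 3 the highest, while its Δ/DN LPS libraries were close together at 272, 241, 272 and 243 CPM.

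Among the IkB genes, the nuclear ones had the largest and the smallest estimated rise. The 95% interval of the smallest, that of Bcl3, overlapped that of Nfkbie in each genotype. Nfkbiz encodes IkB zeta, a cofactor needed for a later wave of LPS-induced genes. It was measured at 20.4, 22, 14.3 and 15.2 CPM in Δ/+ US libraries and at 448, 451 and 521 CPM in Δ/+ LPS libraries. In Δ/DN cells it was at 13, 12.8, 15.3 and 12.4 CPM without and 503, 552, 481 and 353 CPM with LPS. No US library came near any LPS library. The log2 change was 4.68 ± 0.18 (adjusted p = 5.49e-10) in Δ/+ and 5.13 ± 0.17 (adjusted p = 3.51e-10) in Δ/DN cells, or a fold of 20.5 to 36.5 in the Δ/+ and of 28.6 to 43.0 in the Δ/DN cultures. Ordered by log2 change, Nfkbiz stood at rank 256 of the 20865 genes tested in Δ/+ and at rank 115 in Δ/DN cells. Bcl3, which encodes a nuclear IkB protein that works with dimers of the processed precursors, went only from 26.1 to 33.3 CPM up to 53.4 to 73.6 CPM in Δ/+ cells, a log2 change of 1.11 ± 0.18 (adjusted p = 0.00013). In Δ/DN cells its values were 19.6 to 33.1 CPM without and 44.8 to 63.8 CPM with LPS (1.12 ± 0.17, adjusted p = 6.26e-05).

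**Figure D2:**
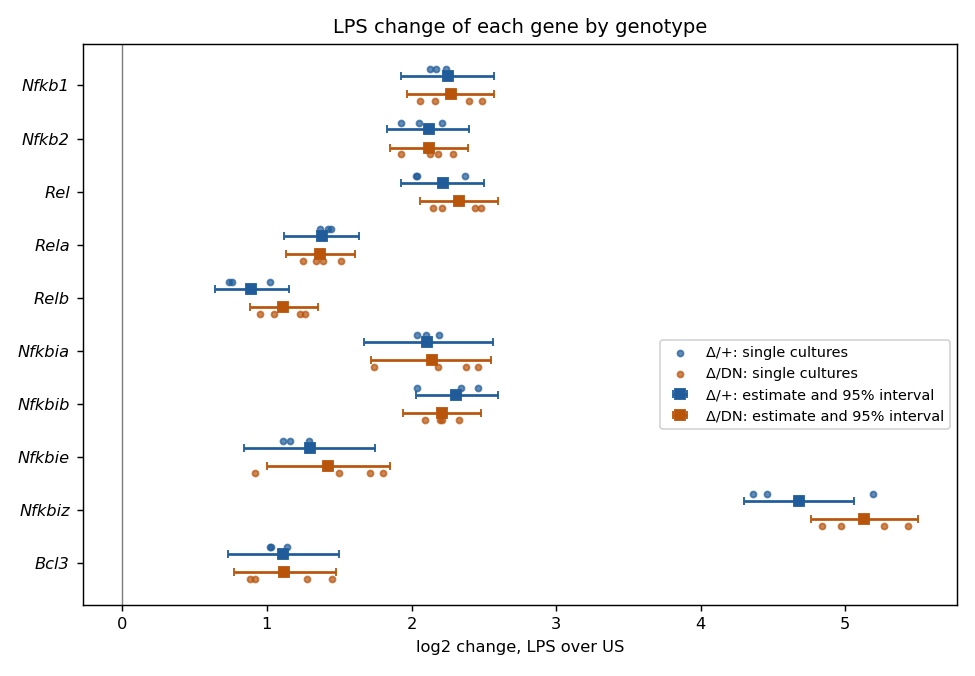
Log2 change with LPS of the 10 genes in Δ/+ and Δ/DN cells; squares are edgeR estimates with 95% intervals and small dots are single cultures. All 10 intervals lie above 0 in both genotypes, and the estimates run from 0.89 (Relb, Δ/+) to 5.13 (Nfkbiz, Δ/DN).

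The make-up of the family was compared on a scale that takes out transcript length, CPM per kb of the longest coding transcript. On it Nfkbia was the most abundant of the 10 in each group, at 141 ± 17.1 (SD, n = 4) in Δ/+ US, 580 ± 39.6 (n = 3) in Δ/+ LPS, 102 ± 40.4 (n = 4) in Δ/DN US and 446 ± 65.0 (n = 4) in Δ/DN LPS libraries. Nfkb1 came next, at 77.9 ± 10.6, 377 ± 23.8, 66.0 ± 10.3 and 320 ± 42.6 CPM per kb. The ranges of Nfkbia and Nfkb1 lay apart in every group except Δ/DN US, where they overlapped. Among Δ/+ US libraries the neighbours from Nfkb2 at 41.5 through Nfkbie, Relb, Rela, Rel and Bcl3 to Nfkbib at 12.8 CPM per kb each overlapped the next in the order. Genes farther apart did not always overlap: Nfkb2, at 33.8 to 47.7, lay wholly above Rel, at 17.1 to 28.9 CPM per kb. Nfkbiz stood apart as the lowest, at 4.37 ± 0.927 CPM per kb in Δ/+ and 3.25 ± 0.320 CPM per kb in Δ/DN US libraries. With LPS it reached 115 ± 10.1 and 115 ± 20.6 CPM per kb, level with Rel within the spread of the libraries, and Bcl3 became the lowest member, at 34.1 ± 5.48 and 29.3 ± 5.10 CPM per kb.

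Within the subunits, the share of Nfkb1 in their summed per-length level was 37% ± 1.85 (SD) in Δ/+ US and 45.5% ± 0.825 in Δ/+ LPS libraries, and 36.5% ± 1.97 and 44.4% ± 0.947 in Δ/DN libraries. The share of Relb was 17.7% ± 1.52 and 8.86% ± 0.129 in Δ/+ and 18.9% ± 1.95 and 10.3% ± 1.08 in Δ/DN libraries. Rel went from 11.7% ± 1.18 to 14.6% ± 0.617 in Δ/+ and from 12% ± 1.61 to 15% ± 0.768 in Δ/DN libraries. Nfkb2 went from 19.7% ± 0.703 to 22.2% ± 0.501 and from 19.9% ± 0.796 to 22% ± 0.903. Rela went from 14% ± 3.38 to 8.87% ± 0.867 and from 12.8% ± 0.953 to 8.33% ± 0.796. Nfkb1, Nfkb2 and Rel thus held more, and Rela and Relb less, of the subunit transcripts with LPS than without. For each gene, US and LPS libraries of the same genotype did not overlap. The level of Nfkb2 over that of Relb was 1.12 ± 0.0904 without and 2.50 ± 0.0527 with LPS in Δ/+ cells, and 1.06 ± 0.131 and 2.14 ± 0.194 in Δ/DN cells. Within the IkB genes, Nfkbia kept most of the summed level, 65.6% ± 4.99 and 64.8% ± 2.25 in Δ/+ and 59.6% ± 2.68 and 59.5% ± 3.32 in Δ/DN libraries without and with LPS. Nfkbiz went from 2.02% ± 0.357 to 12.9% ± 1.38 in Δ/+ and from 2.02% ± 0.428 to 15.4% ± 2.60 in Δ/DN libraries, while Nfkbie went from 19.1% ± 3.70 to 11.2% ± 1.3 and from 23.1% ± 0.506 to 14.2% ± 0.919. The summed IkB level over the summed subunit level was 1.04 ± 0.168, 1.08 ± 0.0826, 0.924 ± 0.204 and 1.05 ± 0.0912 in the US and LPS libraries of Δ/+ and then of Δ/DN cells, and its ranges overlapped in all groups. These ratios are of transcripts and are given as descriptions without a test.

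**Figure D3:**
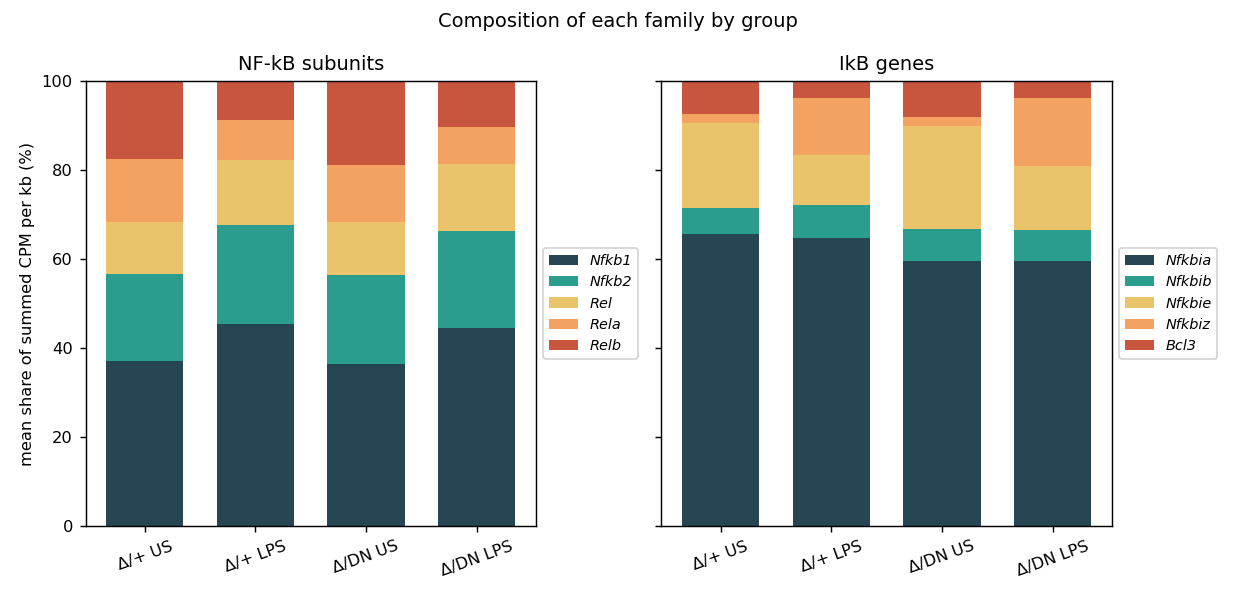
Share (percent) of each gene in the summed per-length level of the 5 subunit genes and of the 5 IkB genes, by group; bars are group means that add up to 100%. With LPS the shares of Nfkb1, Nfkb2, Rel and Nfkbiz are larger and those of Relb, Rela, Nfkbie and Bcl3 smaller in both genotypes.

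In unstimulated cells, all 10 genes had a fitted log2 difference of Δ/DN against Δ/+ below 0, where 49.4% of all genes tested did. None passed the adjusted threshold of 0.05 by edgeR's quasi-likelihood test, against 10.5% of all genes tested, and 3 were under an unadjusted p of 0.05, Rela, Nfkbia and Nfkbiz, against 26.2% of all genes. DESeq2, which called 16.6% of all genes tested, called 2 members, Rela and Nfkbia. So did limma-voom with culture as a random effect, which called 12.6%. The median of the 10 was -0.18, against 0.01 over all genes tested. Rela was at -0.36 ± 0.11 (95% interval -0.60 to -0.12, adjusted p = 0.0533), with 78.5 ± 8.56 CPM in Δ/+ libraries and 62.7 ± 9.62 CPM in Δ/DN libraries (mean ± SD, n = 4 each). The highest Δ/DN library, of culture 3 at 76.8 CPM, lay among the Δ/+ libraries, and the other 3 lay below all of them. Nfkbia showed the same picture, with a difference of -0.55 ± 0.19 (-0.96 to -0.13, adjusted p = 0.0848) and culture 3, at 253 CPM, within the Δ/+ range of 190 to 254 CPM. Nfkbiz was at -0.37 ± 0.15 (-0.70 to -0.04, adjusted p = 0.136).

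The other 7 genes had differences from -0.24 ± 0.17 (Bcl3, adjusted p = 0.406) to -0.03 ± 0.11 (Relb, adjusted p = 0.893) in unstimulated cells, and the libraries of both genotypes overlapped for each of the 10. Nfkb1 was at -0.20 ± 0.14 (adjusted p = 0.412). When the US library of Δ/DN culture 3 was left out, 5 members were lower in Δ/DN by edgeR's test, against 9.43% of all genes tested. They were Nfkbia at -0.79 (adjusted p = 0.00342), Rela at -0.46 (0.00985), Nfkbiz at -0.48 (0.0347), Nfkb1 at -0.34 (0.0394) and Nfkb2 at -0.29 (0.0428). This is the library with 10.4% of its reads in 7SL RNA, with Mysm1 at 28.1 CPM and with the highest target gene level among the Δ/DN US libraries. Its part in the result beyond this comparison was not tested. Rela alone was also called without Δ/+ US replicate 3 (-0.41, adjusted p = 0.0447), without Δ/DN LPS replicate 1 (-0.37, adjusted p = 0.0413) and without Δ/DN LPS replicate 4 (-0.38, adjusted p = 0.0262), where 5.41%, 5.69% and 6.66% of all genes were called lower.

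**Figure D4:**
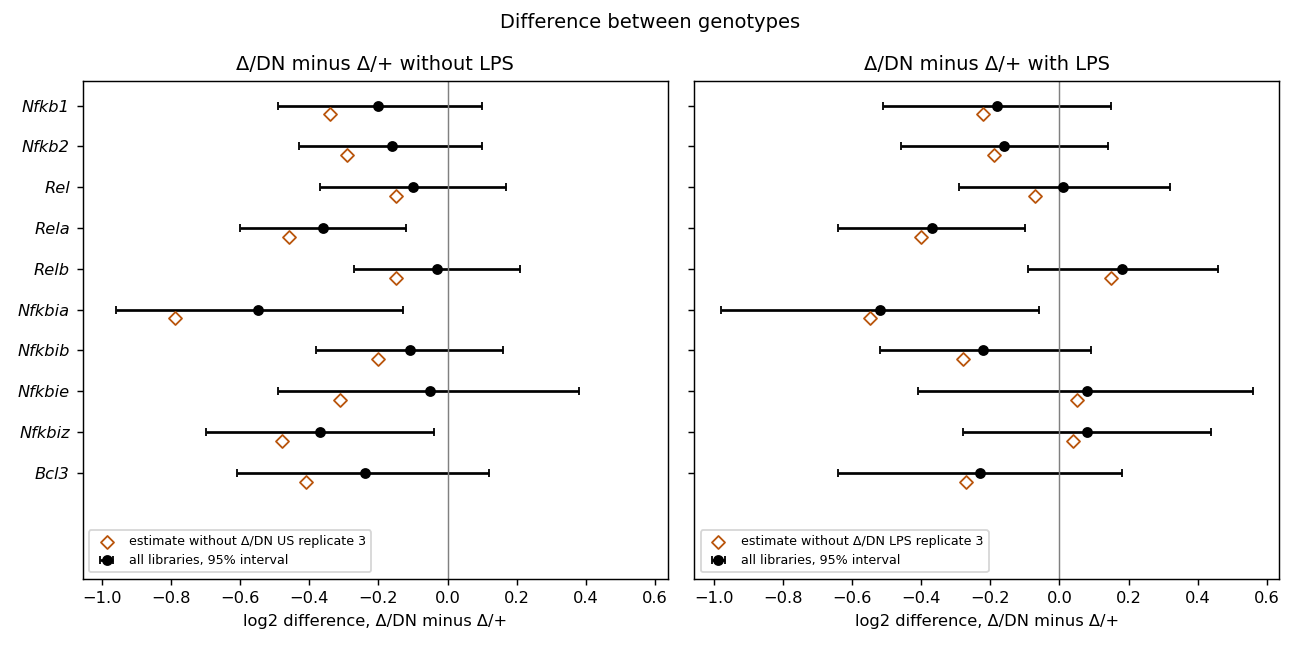
Log2 difference of Δ/DN against Δ/+ for the 10 genes in US and in LPS libraries, fitted by edgeR; points are estimates with 95% intervals, and open diamonds are estimates without the library of Δ/DN culture 3. All 10 US estimates lie below 0, and the intervals of Rela and Nfkbia exclude 0 in both conditions, but none passes the adjusted threshold.

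With LPS, 6 of the 10 genes had a difference below 0, as did 49.3% of all genes tested, and none passed the adjusted threshold by edgeR's quasi-likelihood test, against 8.6% of all genes tested. DESeq2 and limma-voom, which called 14.5% and 9.65% of all genes, called 0 members as well. By edgeR 2 genes, Rela and Nfkbia, were under an unadjusted p of 0.05, against 25.3% of all genes. Rela was at -0.37 ± 0.13 (-0.64 to -0.10, adjusted p = 0.0799), close to its difference without LPS. Nfkbia was at -0.52 ± 0.22 (-0.98 to -0.06, adjusted p = 0.145). For these and for Nfkb1 (-0.18 ± 0.16), Nfkb2 (-0.16 ± 0.14) and Nfkbib (-0.22 ± 0.14), every Δ/DN library lay below every Δ/+ library, 5 members of 10, where 12% of all genes tested had such a separation downward. Without LPS no member had one, against 6.2% of all genes. Rel (0.01 ± 0.14), Nfkbiz (0.08 ± 0.17), Nfkbie (0.08 ± 0.22) and Relb (0.18 ± 0.13) were at or above 0, and Bcl3 was at -0.23 ± 0.19. The Δ/+ LPS libraries all had prefix 2 in their names, and those of Δ/DN cultures 3 and 4 had prefix 3. The separations above thus also compare libraries of different prefix. The model held a term for this prefix, called library set. Without that term, 8 members were below 0, with Rel at -0.16 and Relb at 0.01.

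The LPS library of Δ/DN culture 4, which held neutrophil markers at 993 CPM, was the lowest Δ/DN LPS library for Nfkb1, Nfkb2, Rel, Rela, Relb, Nfkbib and Nfkbiz. Without culture 4 the differences with LPS were -0.14 for Nfkb1, -0.15 for Nfkb2, -0.34 for Rela (adjusted p = 0.0465), -0.51 for Nfkbia (adjusted p = 0.055) and -0.18 for Nfkbib. Without culture 3, Rela was at -0.38 (adjusted p = 0.0322) and Nfkbia at -0.48 (adjusted p = 0.033), both past the threshold as were 6.19% of all genes in that direction, against 3.81% without culture 4. Leaving out only the US library of culture 4 gave calls for both, Rela at -0.41 (adjusted p = 0.0432) and Nfkbia at -0.59 (adjusted p = 0.0463), where 4.45% of all genes were called lower. Without cultures 3 and 4 together, Nfkbia was at -0.47 (adjusted p = 0.0446) with LPS, the only member called (4.32% of all genes lower), and Nfkbia (-0.64, adjusted p = 0.0209) and Nfkb1 (-0.42, adjusted p = 0.0255) were called without LPS (4.43% lower). The stromal and endothelial markers, 7 genes, summed to 19.2 to 30.9 CPM in all Δ/+ and to 10.2 to 16.2 CPM in all Δ/DN libraries. The sum rests mostly on Lepr and Pecam1. The list was split, with 2 genes called higher and 2 lower in Δ/DN US libraries, against 5.01% and 5.45% of all genes tested. With LPS 1 was called lower, against 3.23% of all genes. In US libraries the median of Lepr was 13.7 CPM for Δ/+ against 5.24 CPM for Δ/DN, and that of Col1a2 was 0.178 against 0.609 CPM. Their part in the differences of the members was not tested.

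Whether the response to LPS differed between genotypes was tested as the interaction of genotype and LPS. None of the 10 passed the threshold by edgeR's quasi-likelihood test, DESeq2 or limma-voom, and none was under an unadjusted p of 0.05 by edgeR, against 8.98% of all genes tested. Over all genes 1 passed (Emilin1, -1.72 ± 0.22, adjusted p = 0.0327), which is 0.00479% of those tested, and DESeq2 and limma-voom called 0.566% and 0.00959%. For 9 members the difference in log2 change lay between -0.10 and 0.22. Nfkbiz had the largest, 0.45 ± 0.22 (-0.02 to 0.91, adjusted p = 0.579), from genotype differences of -0.37 without and 0.08 with LPS. The 95% intervals of the other 9 bound what these libraries could miss, for instance -0.41 to 0.44 for Nfkb1, -0.36 to 0.34 for Rela and -0.57 to 0.62 for Nfkbia. These intervals take the US and LPS libraries of 1 culture as independent. With the culture as a replicate block, 156 genes passed, 0.748% of those tested, and none of the 10 members did (smallest adjusted p = 0.372, Nfkbiz). Nfkbiz was then at 0.46, Nfkbie at 0.30 and Relb at 0.28, and 2 members, Nfkbiz and Relb, were under an unadjusted p of 0.05, against 12.7% of all genes. Without the US library of Δ/DN culture 3, no estimate by edgeR lay below 0, with a median of 0.23 against 0.02 in the main fit. There 3 members were under an unadjusted p of 0.05 (share of all genes not computed). Of the members 0 were called, against 0.0144% of all genes. In library set 2 alone the median was 0.19, again with 3 members under an unadjusted p of 0.05 (share of all genes not computed). In that setting 0 members were called, against 0.0189% of all genes.

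The other genes of the pathway were read from 3 lists, which were chosen with earlier results of these data known. Their counts are given as descriptions. Of 30 genes for the IkB kinase complex and the adaptors above it, 21 rose and 4 fell with LPS in Δ/+ cells, and 22 rose and 3 fell in Δ/DN cells. Genes that rose made up 22.4% and 23.1% of all genes tested, and genes that fell 25.3% and 25.1%. The list's median log2 change was 0.85 and 0.89. Map3k8, a kinase bound by the Nfkb1 precursor, rose by 2.00 ± 0.10 and 1.89 ± 0.09, and Irak3, a brake on toll-like receptor signalling, by 1.82 ± 0.11 and 2.04 ± 0.11. Tank, an adaptor of the IkB kinase relatives, rose by 1.96 ± 0.13 and 2.06 ± 0.12. Irak1, Irak4 and Tab1, which act early in the signal, fell in both genotypes, for instance Irak1 by 0.88 on the log2 scale in Δ/+ cells. The fourth that fell in Δ/+ cells was Map3k14, at -0.57 ± 0.18 (adjusted p = 0.0171).

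Between genotypes, 4 genes of this list were called in unstimulated cells, 3 lower in Δ/DN (5.45% of all genes tested) and 1 higher (5.01%). With LPS 1 was lower (3.23% of all genes) and 1 higher (5.37%). Ikbkg, the regulatory subunit of the kinase complex, was lower in unstimulated Δ/DN cells, at 77.0 ± 16.1 against 126 ± 32.2 CPM (SD, n = 4 each). The log2 difference of -0.82 ± 0.11 (adjusted p = 0.00254) was called in all 15 refits without 1 library. With LPS, Ikbkg was not called between genotypes. Map3k7 (-0.24 ± 0.07, adjusted p = 0.0348) and Tab3 (-0.30 ± 0.09, adjusted p = 0.0423) form a kinase complex above the IkB kinase complex. They were lower in unstimulated Δ/DN cells too, and were called in 9 and 5 of the 15 refits. Map3k14, the kinase of the non-canonical arm, was higher in Δ/DN cells without LPS (0.56 ± 0.17, adjusted p = 0.049, called in 4 of 15 refits) and with LPS (0.85 ± 0.19, adjusted p = 0.0202, called in 12 of 15). Without the term for library set it was at 0.32 (adjusted p = 0.564) and 0.52 (adjusted p = 0.352). Tab2 was lower with LPS, at -0.45 ± 0.12 (adjusted p = 0.0387, called in 10 of 15). In unstimulated cells, the call for Map3k14 was lost without culture 3 (0.55, adjusted p = 0.0748), and those for Map3k14 (0.46, adjusted p = 0.11), Map3k7 (-0.24, adjusted p = 0.0587) and Tab3 (-0.32, adjusted p = 0.0598) were lost without culture 4. Map3k7 (adjusted p = 0.0636) and Tab3 (adjusted p = 0.0815) also missed the threshold without the set term. Ikbkg was at -0.83 (adjusted p = 0.0121) without both cultures.

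Of 18 genes for other IkB proteins and proteins that act on NF-kB, 12 rose and 3 fell with LPS in each genotype, with medians of 0.59 and 0.47. Of all genes tested, 22.4% and 23.1% rose, and 25.3% and 25.1% fell. Tnfaip3, a ubiquitin-editing inhibitor of the pathway, rose by 3.84 ± 0.25 in Δ/+ and 3.51 ± 0.23 in Δ/DN cells, and Zc3h12a, an RNase that cuts inflammatory transcripts, by 2.71 ± 0.14 and 2.79 ± 0.13. Nfkbid, a further nuclear IkB gene, rose by 1.29 ± 0.11 and 1.35 ± 0.10, between Bcl3 and Nfkbiz. Pdlim2, Nkrf and Nkiras1 fell in both. With LPS, the mean level of Tnfaip3 was 1958 ± 302 CPM in the 3 Δ/+ libraries and 1111 ± 225 CPM (SD) in the 4 Δ/DN libraries, a log2 difference of -0.88 ± 0.25 (adjusted p = 0.0426) that was called in 4 of 15 refits without 1 library. Tnip2, a partner of Tnfaip3, was at -0.40 ± 0.11 (adjusted p = 0.0415, called in 8 of 15). Without LPS, Zc3h12a (-0.50 ± 0.13), Nkrf (-0.51 ± 0.14) and Tnip1 (-0.34 ± 0.10) were lower and Pdlim2 (0.61 ± 0.19) was higher in Δ/DN cells, called in 10, 11, 2 and 4 of the 15 refits. Of all genes tested, 5.45% were called lower and 5.01% higher without LPS, and 3.23% lower with LPS. Without culture 4, Nkrf (-0.49, adjusted p = 0.0711), Tnip1 (-0.29, adjusted p = 0.0977) and Pdlim2 (0.53, adjusted p = 0.0875) missed the threshold without LPS, as did Tnip2 with LPS (-0.37, adjusted p = 0.0571). Those 3 also missed it without LPS when the set term was dropped, at adjusted p of 0.0593, 0.0549 and 0.0605.

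Of 40 known target genes of NF-kB, 38 rose and 1 fell with LPS in each genotype, with medians of 3.35 and 3.02. This list too was chosen with earlier results of these data known, so the count is a description. Among all genes tested, 22.4% and 23.1% rose with LPS, and 25.3% and 25.1% fell. Between genotypes without LPS, 5.01% of all genes were called higher and 5.45% lower in Δ/DN. Il12b, a cytokine subunit gene whose induction in myeloid cells leans on c-Rel, rose by 10.31 ± 0.40 and 9.67 ± 0.38 on the log2 scale, and Cd80, a T cell co-stimulator, by 2.23 ± 0.14 and 2.30 ± 0.14. The one that fell was Plau, at -2.25 ± 0.27 and -1.58 ± 0.24. Between genotypes, Il12b was higher (1.61 ± 0.29, adjusted p = 0.00834) and Cxcl1 lower (-1.95 ± 0.54, adjusted p = 0.0413, called in 5 of 15 refits) in unstimulated Δ/DN cells, where both were below 6 CPM on average, and none was called with LPS. Without the set term Il12b was at 1.32 (adjusted p = 0.0827) and Cxcl1 at -1.82 (adjusted p = 0.0526), and without cultures 3 and 4 Il12b was at 1.43 (adjusted p = 0.0644). No gene of the 3 lists passed the interaction test by edgeR. Birc3 stands in both the kinase and the target list.

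The gene whose log2 levels ran most like each member across the 15 libraries was taken by Pearson's r. It was Cflar, an inhibitor of cell death signalling, for Nfkb1 and for Nfkb2 (r = 0.998 each), Itgb8 for Rel (0.997), Cpeb4 for Nfkbiz (0.997), Junb for Nfkbia (0.995), Cd200 for Nfkbib (0.995) and Spred1 for Rela (0.995). Nfkbie was matched by Adam17 (0.993), Relb by Gtf2a1 (0.984) and Bcl3 by U90926 (0.973). These values are set mostly by the gap between US and LPS libraries, which many genes share, and are given as a description.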

How the data were processed

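The authors deposited raw read counts per gene, 1 table per library and 50554 genes per table. Reads were trimmed, aligned and counted before deposit: FastQC, Trimmomatic 0.33, HISAT2 2.2.1, featureCounts, bedtools and edgeR appear in the submitters' processing notes, with the build mm39 (GRCm39) and without settings. Whether counting used strand was not stated. Symbols came from RefSeq and matched 96.7% of the genes. The deposited gene length exceeded the RefSeq gene span in 11% of them, so per-length levels used the longest coding transcript of GENCODE M21, a departure from the design.

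All 15 libraries entered one quasi-likelihood model (edgeR 4.0.16, R 4.3.3), with TMM factors, filterByExpr (minimum count 10), a term for library set (prefix 2 or 3 in the library names, of unstated meaning) and Benjamini-Hochberg adjustment over 20865 genes. Set 3 held Δ/+ US replicate 4 and all libraries of Δ/DN cultures 3 and 4, and no Δ/+ LPS library. Levels are TMM-scaled CPM, and errors of log2 values are standard errors. The scripts were tested on simulated counts. Alternatives were DESeq2 1.42.0, limma-voom (limma 3.58.1), other scalings, no filter, no set term, blocks, and libraries or cultures left out. The limma-voom fit took culture as a random effect. Library names tie US and LPS samples to 1 culture, and the deviations of such pairs from their group means correlated at 0.064 to 0.428. The main model took the libraries of such pairs as independent. The members and all lists were chosen with earlier results of these data known. All 10 members are reported. Of other genes, the text names those called between genotypes and, with LPS, some of the 3 with the smallest p and of those that fell.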

Additional observations from a re-analysis of the deposited data

Results flagged for a closer look

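Of 30 sets of 4 libraries checked (10 genes in each of the 3 groups with 4 libraries), 3 had 1 library far from the others by Dixon's criterion, which chance alone meets in about 1 in 20 sets. Nfkb2, the non-canonical precursor gene, was at 526 CPM in the LPS library of Δ/DN culture 4, against 625 to 635 CPM in the other 3. Relb was at 57.8 CPM in the US library of Δ/DN culture 4, against 80.3 to 83 CPM in the other 3. Nfkbie was at 76.5 CPM in the US library of Δ/+ replicate 4, against 105 to 110 CPM in the other 3. Each of these was the lowest of its group, and these 3 libraries belong to library set 3.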

How the results depend on the processing

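The rise of all 10 members with LPS was called in each genotype under every alternative run, the culture block included, and that replicate block called 0 members in the interaction, where it raised the count over all genes from 1 to 156. Shares in parentheses are of all genes called lower in Δ/DN under the same setting, the direction of every member called. Without LPS, 0 members were called between genotypes by the main test (5.45%), 1 with upper-quartile factors (5.87%) or without a filter (2.37%), 2 by DESeq2 (8.46%), by limma-voom (6.25%), in library set 2 alone (4.07%) or without Δ/DN cultures 3 and 4 (4.43%), 4 with the replicate number as a block (9.18%), 5 without culture 3 (10.3%), and 0 to 5 with 1 library left out. With LPS, the count was 0 by the main test (3.23%), 1 in set 2 alone (3.85%), without culture 4 (3.81%) or without both (4.32%), 2 without culture 3 (6.19%), 3 with the replicate-number block (7.57%), and 0 to 2 with 1 library left out. Libraries with the same number correlated across genotypes at -0.089 to 0.146, a range that overlaps that of the culture pairs, 0.064 to 0.428. These values therefore cannot settle whether the numbers pair the genotypes.

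Signs turned for results whose main estimates lay between -0.10 and 0.13. In the interaction, Nfkb1 was at -0.00 without the set term, Nfkb2 at -0.01 with upper-quartile factors, -0.02 without the set term and -0.03 without culture 4, and Rela at 0.03 without the set term, 0.06 in set 2, 0.08 without culture 3 and 0.05 without both cultures. Without culture 4, Nfkbia was at -0.08 and Bcl3 at -0.05 (-0.00 with upper-quartile factors), while Nfkbib was at 0.01 in set 2 and 0.00 without both cultures. Between genotypes with LPS, Rel was at -0.01 with upper-quartile factors, -0.16 without the set term, -0.04 in set 2, -0.05 without culture 3 and -0.06 without both, and Nfkbiz at -0.00 without the set term or with the replicate-number block. Without LPS and without culture 4, Relb was at 0.02 and Nfkbie at 0.04. With 1 library left out, the interaction ranged from -0.04 to 0.21 (Nfkb1), -0.08 to 0.17 (Nfkb2), -0.10 to 0.11 (Rela), -0.17 to 0.35 (Nfkbia), -0.24 to 0.01 (Nfkbib), -0.03 to 0.49 (Nfkbie) and -0.12 to 0.24 (Bcl3), the difference with LPS from -0.07 to 0.08 (Rel), -0.02 to 0.18 (Nfkbie) and -0.00 to 0.15 (Nfkbiz), and that without LPS from -0.15 to 0.02 (Relb) and -0.31 to 0.10 (Nfkbie). The causes were not tested. Over all genes, the main test called 2184 between genotypes without and 1795 with LPS, and with 1 library left out 174 to 3403 and 90 to 2233.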
